A study of Mus musculus with 24 samples.

Results

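The receptor genes described here encode the subunits of the ionotropic and metabotropic receptors for GABA and glutamate. They are the 47 rows, of 47643 gene symbols in the TPM table (a relative level that takes account of transcript length), whose symbols name GABA-A, GABA-B, AMPA, kainate, NMDA, delta or metabotropic glutamate receptor genes. Neocortex, cerebellum and hippocampus were taken from male C57BL/6J mice aged 4 months, up to 3 weeks after an injection of LLC cells or a mock injection. LLC is the labels' name of the injected tumour cells and usually stands for Lewis lung carcinoma, while the title of the series speaks of melanoma. Each of the 6 groups held 4 libraries of whole tissue, with LLC replicates numbered 1 to 4 and control replicates 14 to 17. The labels name no other allele or agent. They call the libraries biological replicates and do not say whether the 3 regions that carry one number came from the same mouse, so p-values measure the spread between these libraries.

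GABA is the main inhibitory and glutamate the main excitatory transmitter of the brain. GABA-A receptors are chloride channels built from several subunits, most often alpha and beta subunits with a gamma or delta subunit, and the alpha subunit sets much of their pharmacology and place in the cell. GABA-B receptors are G protein coupled pairs of Gabbr1 and Gabbr2. AMPA receptors (Gria1 to Gria4) carry most fast excitation, NMDA receptors join the obligatory Grin1 with Grin2 or Grin3 subunits, kainate receptors join Grik subunits, and the delta receptors act mainly as synaptic organisers that bind cerebellins. The metabotropic glutamate receptors (Grm genes) are G protein coupled.

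The tissue labels were checked against cell type markers. The summed level of 5 forebrain glutamatergic markers lay between 2852 and 3491 TPM in the neocortex and hippocampus libraries and between 325 and 506 TPM in the cerebellum, and 6 granule cell markers summed to between 1579 and 2831 TPM in the cerebellum and to at most 71.9 TPM elsewhere. Cerebellar LLC replicate 1 stood apart: its granule cell, Purkinje cell and Bergmann glia markers lay on average 0.74, 0.96 and 0.51 below the control mean on the log2 scale, its oligodendrocyte and GABAergic interneuron markers 0.48 and 0.90 above it, and its receptor transcripts summed to 2619 TPM against 3993 to 4205 TPM in the other LLC libraries. LLC replicate 4 of every region lay nearest to the controls: 5 red blood cell transcripts summed to 3564, 4247 and 2621 TPM there in neocortex, cerebellum and hippocampus, against 7104 to 15574 TPM in the other LLC libraries and 729 to 1623 TPM in controls. Results that rest on these libraries are given with and without them. Cerebellar LLC replicate 1 and LLC replicate 4 were singled out from these same data. Without LLC replicate 4, which lay nearest to the controls, the share of all genes called rises in every LLC comparison. P-values from fits without these libraries are therefore descriptions and add no support. The depth of the libraries is unknown, because TPM keeps no read totals. In whole tissue, fewer cells of a type and less RNA per cell cannot be told apart.

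Of the 47 genes, 40 reached a mean of 1 TPM in control neocortex, 40 in control cerebellum and 39 in control hippocampus. In these groups 10, 14 and 11 genes reached 100 TPM. Grm6, the receptor of retinal bipolar cells, was listed at 0 in all 24 libraries, and Gabre, Gabrp, Gabrr1, Gabrr3 and Grm6 entered no test. In all, 7, 7 and 8 genes missed the mean of 1 TPM in the LLC comparisons of neocortex, cerebellum and hippocampus, so that counts below are over those that reached it and not over all 47. Control regions were compared on log2(TPM + 1) with limma across all genes, with p-values adjusted by the Benjamini-Hochberg method and a threshold of 0.05. The 3 region contrasts share control libraries. Between control cerebellum and control neocortex 34 of 40 receptor genes passed (13 higher and 21 lower in cerebellum) beside 85.5% of all genes tested (61.0% higher and 24.4% lower). Between hippocampus and neocortex 30 of 39 passed (16 higher, 14 lower) beside 61.8% of all genes (40.5% and 21.3%). Between hippocampus and cerebellum 35 of 40 passed (21 higher, 14 lower) beside 81.9% (26.6% and 55.3%). Most receptor genes, like most genes tested, thus differed between regions.

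The region contrasts depend on scaling in their balance. The median difference of cerebellum from neocortex was −0.19 over the receptor genes and 0.31 over all genes tested, and with median-ratio scaling, which brings the median of all genes to 0.01, it was −0.51 over the receptor genes with 11 called higher and 26 lower, beside 40.7% and 40.1% of all genes. Hippocampus against cerebellum had medians of 0.38 for the receptor genes and −0.23 for all genes, and 0.60 and −0.02 with that scaling, with 24 called higher and 12 lower beside 38.6% and 39.5% of all genes. For hippocampus against neocortex the scaling gave 13 higher and 17 lower beside 30.3% and 30.7%. With either scaling the median receptor gene stood lower in cerebellum, relative to the median of all genes, than in neocortex or hippocampus.

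**Figure D1:**
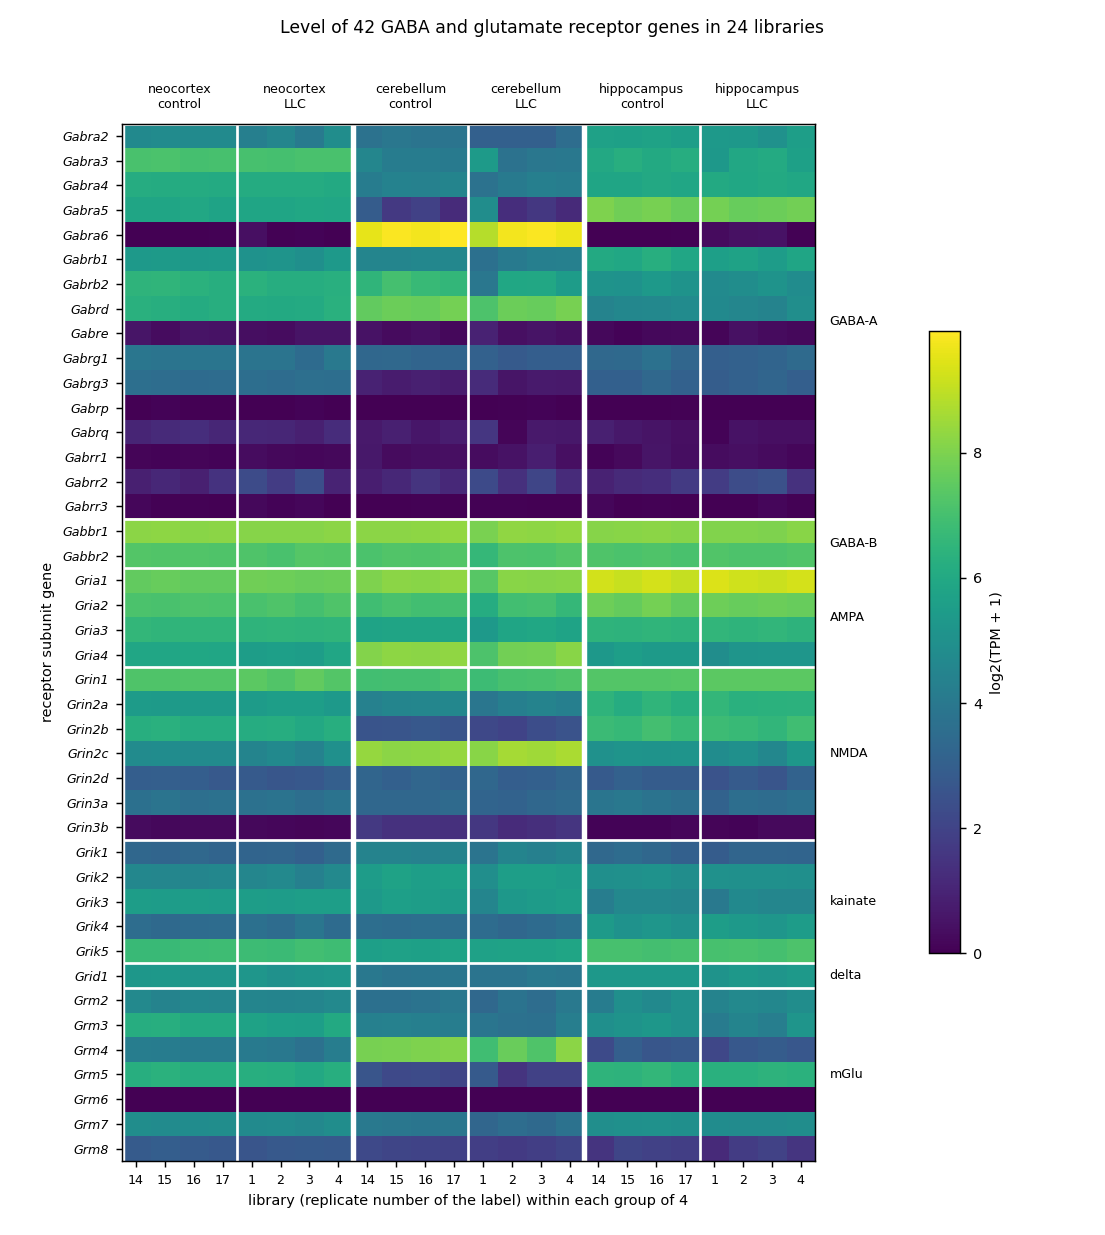
Level of 42 of the 47 receptor genes (rows, by receptor family) in each of the 24 libraries (columns, by region and treatment), as log2(TPM + 1) on a linear colour scale. Gabra6 is bright in the 8 cerebellar columns and dark in the other 16, Gabra5 and Gria1 are brightest in the 8 hippocampal columns, and cerebellar LLC replicate 1 differs from its neighbours in Gabra5, Gabra6 and Gabrb2.

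Among the GABA-A alpha subunits different genes led in cerebellum and hippocampus. Gabra6, the alpha subunit known from cerebellar granule cells, was at 761, 955, 876 and 986 TPM in the 4 control cerebella. In control neocortex it was at 0, 0, 0.0267 and 0.0513 TPM and in control hippocampus at 0, 0, 0 and 0.0284 TPM. It made up 70.2% ± 1.53 (SD, n = 4) of the summed alpha subunit TPM in control cerebellum, and the difference from neocortex was 9.77 ± 0.072 (SE) on the log2(TPM + 1) scale (limma, adjusted p = 4.42e-15). The genes whose levels over the 24 libraries were most like it among 14873 genes were Pcp2, Cnpy1 and Cbln3, with Pearson r of 0.9996, 0.9995 and 0.9994. These correlations describe libraries that share a region and have no p-value.

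Gabra5, the alpha subunit of mostly extrasynaptic receptors in hippocampal pyramidal cells, was lowest where Gabra6 was highest. It was at 263, 221, 236 and 205 TPM in control hippocampus, 56.3, 56.9, 62.0 and 53.8 TPM in neocortex and 6.40, 2.11, 2.81 and 1.31 TPM in cerebellum. The ranges did not overlap, and the difference of hippocampus from neocortex was 1.99 ± 0.07 (SE, adjusted p = 5.01e-09) and from cerebellum 5.94 ± 0.28 (SE, adjusted p = 5.27e-09). Gabra5 made up 43.0% ± 3.13 (SD, n = 4) of hippocampal alpha subunit TPM. Gabra3 was at 133 ± 3.47 TPM (SD, n = 4) in control neocortex. It differed between cerebellum and neocortex by −2.83 ± 0.091 (SE, adjusted p = 1.87e-10), and was also higher in hippocampus than in cerebellum, by 1.87 ± 0.10 (SE, adjusted p = 1.66e-08). Gabra2 was highest in hippocampus at 51.1, 49.3, 52.6 and 46.9 TPM, against 25.3, 26.8, 25.7 and 26.3 TPM in neocortex, a difference of 0.91 ± 0.043 (SE, adjusted p = 3.84e-08).

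Several GABA-A genes lie in clusters on mm10. On chromosome 5 Gabrg1, Gabra2, Gabra4 and Gabrb1 lie between 70751047 and 72149037, on chromosome 11 Gabra6 and Gabrb2 lie between 42306437 and 42629028, and on chromosome 7 Gabrg3 and Gabra5 lie between 56716465 and 57510059 (GENCODE M21). Cluster neighbours differed in their regional spread: Gabra6 was near 0 TPM in the forebrain, while Gabrb2 was at 105 ± 17.5 TPM in control cerebellum, 83.4 ± 7.31 in neocortex and 34.8 ± 2.92 in hippocampus. Of the 47 genes 32 had a promoter window in RefSeq's GRCm38.p6 tables, 39 windows in all, each running from 250 bases before to 50 bases after an annotated start. The windows below are shown because Gabra6 and Gabra5 mark opposite regions, Gabra2 passed the test in LLC cerebellum, and Gabra4 and Gabrb1 are head-to-head neighbours of which Gabrb1 passed the LLC test over the region means. All are written 5′ to 3′ on the strand of the gene. Capitals mark NFI half-sites (TTGGC on either strand) and GC boxes (GGGCGG on either strand), which do not overlap each other in these windows.
Gabra6, chr11:42321023-42321322, minus strand: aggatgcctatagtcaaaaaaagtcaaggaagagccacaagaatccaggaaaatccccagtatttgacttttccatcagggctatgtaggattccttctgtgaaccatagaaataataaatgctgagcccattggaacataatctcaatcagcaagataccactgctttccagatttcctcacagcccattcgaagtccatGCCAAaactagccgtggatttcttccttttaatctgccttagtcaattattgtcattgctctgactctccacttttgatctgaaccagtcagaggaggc
Gabra5, chr7:57510010-57510309, minus strand: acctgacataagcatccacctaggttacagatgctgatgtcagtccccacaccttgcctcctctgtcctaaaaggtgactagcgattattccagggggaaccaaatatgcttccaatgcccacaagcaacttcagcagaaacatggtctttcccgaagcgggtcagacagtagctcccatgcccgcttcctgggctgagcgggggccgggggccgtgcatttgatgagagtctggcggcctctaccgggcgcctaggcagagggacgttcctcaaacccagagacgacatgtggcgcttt
Gabra2, chr5:71095800-71096099, minus strand: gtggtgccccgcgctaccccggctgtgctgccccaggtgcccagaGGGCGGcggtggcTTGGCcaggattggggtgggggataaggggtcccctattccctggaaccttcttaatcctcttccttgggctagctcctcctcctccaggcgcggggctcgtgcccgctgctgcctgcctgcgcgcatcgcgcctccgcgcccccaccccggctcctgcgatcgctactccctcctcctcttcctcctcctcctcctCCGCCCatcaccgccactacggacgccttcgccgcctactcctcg
Gabra4, chr5:71658259-71658558, minus strand: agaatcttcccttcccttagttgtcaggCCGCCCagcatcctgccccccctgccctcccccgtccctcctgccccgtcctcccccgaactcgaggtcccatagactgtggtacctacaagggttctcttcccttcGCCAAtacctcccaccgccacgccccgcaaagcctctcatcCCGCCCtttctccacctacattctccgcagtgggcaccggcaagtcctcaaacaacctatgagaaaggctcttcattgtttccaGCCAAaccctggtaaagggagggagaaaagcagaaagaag
Gabrb1, chr5:71657671-71657970, plus strand, first listed start: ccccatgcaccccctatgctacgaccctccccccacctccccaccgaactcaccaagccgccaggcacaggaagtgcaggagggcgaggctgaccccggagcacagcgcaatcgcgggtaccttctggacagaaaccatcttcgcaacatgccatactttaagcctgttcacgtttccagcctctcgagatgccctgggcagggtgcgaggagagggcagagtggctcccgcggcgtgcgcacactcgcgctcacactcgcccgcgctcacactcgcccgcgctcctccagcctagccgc

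The Gabra6 window held 2 CpG dinucleotides and 42.0% G and C, whereas the Gabra2 window held 25 and 70.0%, and the median of all 32851 windows was 7 CpG. The Gabra6 window held 1 NFI half-site, the Gabra2 window 1 and the Gabra4 window 2, and the Gabra5 and Gabrb1 windows shown held none. GC boxes were found in the Gabra2 and Gabra4 windows, 2 in each. Over the 39 receptor windows 46.2% held an NFI half-site and 48.7% a GC box, against 46.7% and 35.7% of all windows of that length. A TATA box (TATAAA on either strand) was in 10.3% of receptor windows and 13.6% of all windows, and the cAMP response element TGACGTCA was in 0 of 39 and in 1.79% of all. A match is a description of letters and not of a bound site.

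Beta subunits are part of nearly all GABA-A receptors and form the GABA binding site together with alpha subunits. In control cerebellum Gabrb2 was at 89.2, 129, 104 and 95.8 TPM. It was lower in hippocampus than in neocortex, with a difference of −1.24 ± 0.071 (SE, adjusted p = 1.51e-07). Gabrd, the delta subunit of extrasynaptic receptors, was at 188, 208, 195 and 234 TPM in cerebellum, 79.3, 74.3, 68.8 and 75.0 TPM in neocortex and 20.7, 22.997, 23.997 and 27.0 TPM in hippocampus, and the last differed from cerebellum by −3.07 ± 0.083 (SE, adjusted p = 6.44e-11) and from neocortex by −1.61 ± 0.072 (SE, adjusted p = 2.70e-08). Gabrq, the theta subunit, was at 1.07, 1.27, 1.44 and 1.07 TPM in neocortex and at most 1.94 TPM in the other libraries. Gabrg3 was below 1 TPM in every control cerebellum (0.938, 0.682, 0.819 and 0.678) and at 11.5, 10.9, 10.1 and 10.3 TPM in neocortex, a difference of −2.72 ± 0.074 (SE, adjusted p = 4.76e-11), and it was 2.31 higher in hippocampus than in cerebellum. The GABA-B genes were nearly level: Gabbr1, the subunit that binds GABA, was at 297 ± 5.90, 305 ± 13.99 and 286 ± 6.27 TPM and Gabbr2, which couples to the G protein, at 151 ± 4.30, 147 ± 7.18 and 143 ± 4.91 TPM. Neither passed in any region contrast.

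The make-up of the AMPA receptor pool also differed by region. Gria1 was at 614, 546, 636 and 539.7 TPM in control hippocampus and 189, 199, 189 and 189 TPM in neocortex, a difference of 1.60 ± 0.052 (SE, adjusted p = 3.09e-09). It made up 63.5% ± 0.646 of hippocampal and 39.7% ± 0.891 of neocortical AMPA subunit TPM (SD, n = 4). In cerebellum Gria4, whose product gives fast currents, reached 38.7% ± 0.362 of the pool against 12.1% ± 0.0959 in neocortex and 4.60% ± 0.646 in hippocampus. The cerebellar levels of Gria4 (297 ± 18.1 TPM) and Gria1 (290.2 ± 21.2 TPM) overlapped. Gria2, the subunit whose edited form blocks calcium, made up 29.0% ± 0.709 in neocortex, 22.4% ± 0.619 in hippocampus and 16.2% ± 0.759 in cerebellum. Gria3 was at 92.3 ± 2.56, 54.9 ± 0.890 and 87.5 ± 2.19 TPM in neocortex, cerebellum and hippocampus. The genes most like Gria1 over the 24 libraries were Lrrn2, Dock4 and Prkag2 (Pearson r = 0.984, 0.984 and 0.980).

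Among NMDA receptor genes the obligatory Grin1 was at 149 ± 2.06, 128 ± 7.02 and 156 ± 1.63 TPM in control neocortex, cerebellum and hippocampus. The accompanying GluN2 subunits exchanged places between forebrain and cerebellum. Grin2c, known from granule cells and astrocytes, was at 332, 299, 305 and 334 TPM in cerebellum and 26.9, 27.3, 26.8 and 27.0 TPM in neocortex, a difference of 3.50 ± 0.04 (SE, adjusted p = 8.46e-14). Grin2b, the subunit with slow decay that prevails early in life, was at 4.99, 5.19, 5.68 and 4.94 TPM in cerebellum, 74.4, 79.0, 71.3 and 69.6 TPM in neocortex and 110.2, 101, 123 and 103 TPM in hippocampus. Its difference of cerebellum from neocortex was −3.59 ± 0.055 (SE, adjusted p = 6.46e-13). Grin2c thus made up 89.97% ± 0.790 of cerebellar GluN2 TPM, and Grin2b 49.3% ± 1.14 of that in neocortex and 47.5% ± 0.752 in hippocampus. Grin2a was highest in hippocampus (87.1, 71.0, 90.1 and 74.4 TPM), 0.92 above neocortex, and its nearest genes over the 24 libraries were Nckap1, Garem and Wipf3 (Pearson r = 0.992, 0.992 and 0.990). Grin2d was at 6.62 ± 0.558, 8.06 ± 0.605 and 6.61 ± 0.705 TPM and Grin3a, a subunit that lowers calcium entry, at 12.1 ± 0.731, 9.19 ± 0.487 and 13.1 ± 1.35 TPM in neocortex, cerebellum and hippocampus. Grin3b passed 1 TPM in the cerebellum only, at 2.12, 1.66, 1.64 and 1.58 TPM in controls, against at most 0.237 TPM in the forebrain libraries. Its exons share 32.1% of their bases with Tmem259 on the other strand, and the use of strand in counting is not given in the sources used here.

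**Figure D2:**
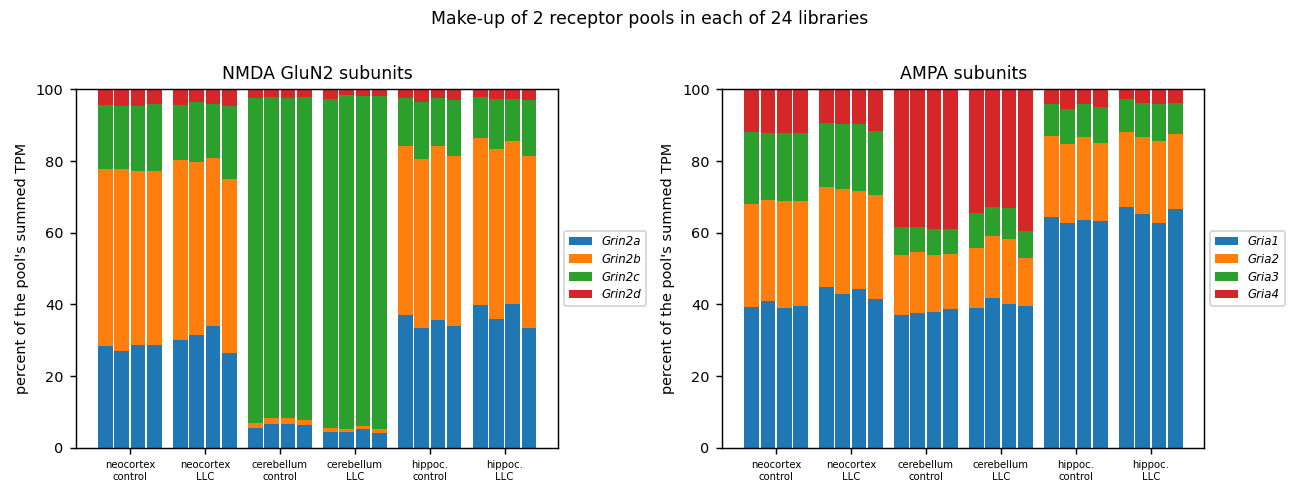
Make-up of the GluN2 and AMPA pools in each library: each bar is 1 library, its segments the percent of the pool's summed TPM held by each gene, and libraries are grouped by region and treatment. Grin2c fills most of the cerebellar GluN2 pool, and Gria1 holds the largest segment of the AMPA pool in hippocampus.

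Of the kainate receptor genes Grik5, a subunit that acts only together with Grik1 to Grik3, led in neocortex (109 ± 4.59 TPM) and hippocampus (131 ± 4.21 TPM), and in cerebellum its range overlapped that of Grik2 (50.2 ± 2.18 and 47.8 ± 3.54 TPM). Grik4 was at 41.7, 32.4, 36.9 and 31.8 TPM in hippocampus, where it is known from CA3 pyramidal cells, and at 10.8, 9.47, 9.999 and 10.5 TPM in neocortex, a difference of 1.71 ± 0.082 (SE, adjusted p = 4.43e-08). Grik1 was at 8.74 ± 0.529, 20.6 ± 0.494 and 8.97 ± 1.36 TPM and Grik3 at 44.6 ± 0.909, 44.2 ± 3.96 and 22.0 ± 2.94 TPM in neocortex, cerebellum and hippocampus. Of the delta receptors Grid1 was at 36.9 ± 1.64, 13.97 ± 0.650 and 38.4 ± 0.409 TPM in neocortex, cerebellum and hippocampus.

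The metabotropic glutamate receptors also differed between regions. Grm4, a presynaptic receptor of parallel fibres, was at 236, 248, 257 and 271 TPM in cerebellum, 17.4, 17.3, 15.9 and 15.8 TPM in neocortex and 3.69, 7.08, 5.29 and 5.85 TPM in hippocampus. It differed by 3.85 ± 0.049 (SE, adjusted p = 1.75e-13) between cerebellum and neocortex, by −5.32 ± 0.13 (SE, adjusted p = 3.20e-11) between hippocampus and cerebellum and by −1.47 ± 0.13 (SE, adjusted p = 4.92e-06) between hippocampus and neocortex. Grm5, a group I receptor, was lowest in cerebellum, at 5.17, 3.62, 3.88 and 3.24 TPM there, 75.1, 80.9, 72.4 and 73.3 TPM in neocortex and 86.4, 84.6, 94.0 and 78.9 TPM in hippocampus, and the first of these contrasts was −3.95 ± 0.10 (SE, adjusted p = 2.53e-11). Grm2, a presynaptic receptor, was at 22.9 ± 1.67, 12.8 ± 1.35 and 26.2 ± 6.63 TPM in neocortex, cerebellum and hippocampus. Grm3, a receptor expressed strongly by astrocytes, was at 68.9 ± 5.40 TPM in neocortex and −1.04 from it in hippocampus, and Grm8 at 6.29 ± 0.464 TPM and −1.03.

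LLC libraries were then compared with controls within each region. In the neocortex 3 of 40 receptor genes passed, 1 higher and 2 lower, beside 8.54% of all 14485 genes tested (5.59% higher and 2.95% lower). The median difference was −0.06 over the receptor genes and 0.01 over all genes, and 30 of the 40 were negative (75.0%) against 45.6% of all genes. Single differences ran from −0.39 to 0.77. At an unadjusted p under 0.05 there were 8 of 40 receptor genes beside 29.8% of all genes. The share of receptor genes called was thus no higher than the background. All 4 LLC libraries lay above all 4 controls for Gria1 and Grin1, beside 10.9% of all genes, and below them for Gria4, beside 6.18%.

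Gria1 was at 189, 199, 189 and 189 TPM in control neocortex and 220.5, 214, 205 and 207 TPM in LLC neocortex. Every LLC library was above every control, by a small margin. Gria1 rose by 0.15 ± 0.035 (SE, limma adjusted p = 0.0372). Gria4 was at 57.8, 58.7, 59.2 and 57.9 TPM in controls and 45.6, 47.8, 44.9 and 57.4 TPM in LLC, with LLC replicate 4 just under the controls. It fell, with a log2 difference of −0.26 ± 0.069 (SE, adjusted p = 0.0473). Grm3 was at 72.1, 74.9, 64.2 and 64.5 TPM in controls and 51.5, 48.1, 46.3 and 64.5 TPM in LLC, with replicate 4 inside the control range, and fell with −0.39 ± 0.10 (SE, adjusted p = 0.0380). The share of Gria4 in the neocortical AMPA pool was 12.002% to 12.2% in controls and 9.29% to 11.5% in LLC, and that of Gria1 39.1% to 41.0% and 41.5% to 44.9%.

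These 3 calls were sensitive to single libraries. Without any one of control replicates 14 to 17, LLC replicate 1 or LLC replicate 2, 0 receptor genes passed (limma), and without LLC replicate 3 only Gria1 did. Without LLC replicate 4, 11 of 40 passed, beside 26.5% of all genes. Gria1, Grin1 and Gabrr2 were higher among these and Grm3, Gria4, Gabra2, Gabrb1, Gabrd and Grin2c lower, with Gabrb1 (−0.25 ± 0.077, SE, adjusted p = 0.0711 with all libraries) at −0.32 ± 0.053 (SE, adjusted p = 0.00215). Without that library Grm3 stood at −0.49 ± 0.062 (SE, adjusted p = 5.07e-04) and Gria4 at −0.33 ± 0.036 (SE, adjusted p = 2.04e-04). The adjusted p of Gria1 ran from 0.0119 to 0.550 over 16 alternatives, 5 of which passed, that of Gria4 from 2.04e-04 to 0.282 over 16 alternatives, 5 of which passed, and that of Grm3 from 5.07e-04 to 0.171 over 16 alternatives, 6 of which passed. Astrocyte markers (5 genes, 1 of which passed as lower) lay on average 0.18 to 0.34 below the control mean on the log2 scale in LLC replicates 1 to 3 and 0.03 above it in replicate 4. The median difference over these 5 genes was −0.05, so the list did not fall evenly. They summed to 1110 to 1364 TPM in LLC against 1235 to 1317 TPM in controls. Of 8 pan-neuronal markers 4 passed as lower, with sums of 3387 to 3871 TPM in LLC and 3863 to 4050 TPM in controls. All 3 endothelial and all 5 red blood cell markers passed as higher, as did 2 of 3 oligodendrocyte precursor markers. Lower were 3 of 5 oligodendrocyte, 1 of 5 forebrain glutamatergic and 1 of 4 tested Purkinje cell markers. The part of these cell types in the receptor results was not tested.

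**Figure D3:**
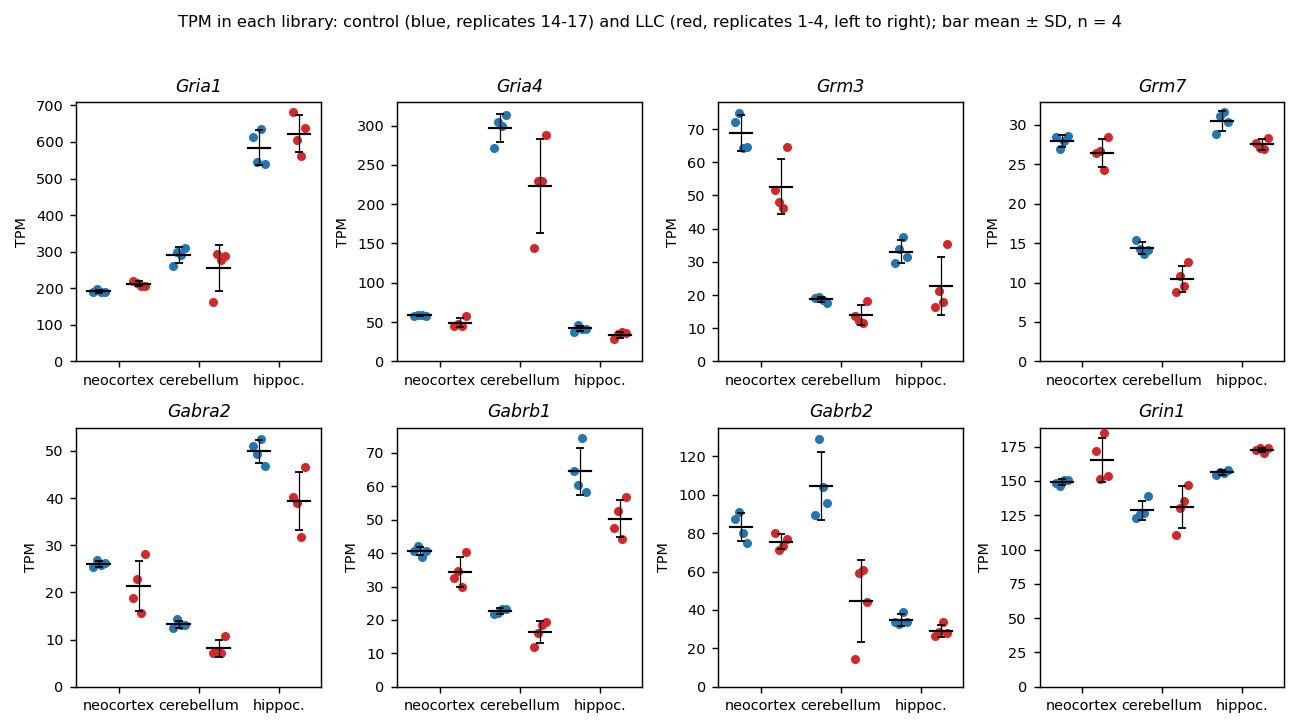
TPM of 8 receptor genes in every library on linear axes from 0, control in blue and LLC in red by region, with the mean (bar) and SD of 4 libraries. LLC replicate 4, the rightmost red point of each set, lies nearest to the controls for Grm3 in all 3 regions and for Gria4 in neocortex and cerebellum, and in cerebellum all 4 LLC libraries lie below the controls for Gabra2, Gabrb1, Gabrb2 and Grm7.

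In the cerebellum 1 of 40 receptor genes passed, and it was lower, beside 2.50% of all 14624 genes tested (1.23% higher and 1.27% lower). The levels of 33 of 40 were lower on average (82.5%) against 58.8% of all genes, with medians of −0.21 and −0.04. Single differences ran from −1.39 to 0.59. At an unadjusted p under 0.05 there were 11 of 40, 10 of them lower, beside 24.4% of all genes. All 4 LLC libraries lay below all 4 controls for Gabra2, Gabrb1, Gabrb2, Gabrg1, Grin2b and Grm7, 6 of 40, beside 10.3% of all genes, and above them for none, beside 6.42%.

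Gabra2, a synaptic alpha subunit, was at 12.4, 14.3, 13.1 and 13.0 TPM in control and 7.24, 7.37, 7.18 and 10.7 TPM in LLC cerebellum. The LLC libraries were all lower, replicates 1 to 3 closely together. Gabra2 fell, at −0.66 ± 0.12 (SE, adjusted p = 0.0317), and its adjusted p ran from 0.00121 to 0.129 over 16 alternatives, 8 of which passed. Grm7, a presynaptic receptor of low affinity, did not pass: it was at 15.5, 14.2, 13.7 and 14.2 TPM in controls and 8.85, 10.9, 9.62 and 12.6 TPM in LLC, a difference of −0.43 ± 0.10 (SE, adjusted p = 0.0583). Gabrg1 was at 9.03, 9.31, 8.35 and 8.20 TPM in controls and 7.45, 6.00, 6.85 and 6.93 TPM in LLC, a difference of −0.32 ± 0.086 (SE, adjusted p = 0.0755) that did not pass either. Gabrb2 had the largest difference, −1.39 ± 0.39 (SE, adjusted p = 0.0794), at 89.2, 129, 104 and 95.8 TPM in controls and 14.3, 59.1, 60.7 and 44.3 TPM in LLC, where replicate 1 lay far below the other 3. In the beta subunit pool the share of Gabrb2 was 46.7% to 56.0% in controls and 16.5% to 40.5% in LLC.

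Without cerebellar LLC replicate 1, 6 of 40 receptor genes passed, beside 8.84% of all genes. Gabra2 stood at −0.61 ± 0.12 (SE, adjusted p = 0.0216), Gabrb2 at −0.92 ± 0.14 (SE, adjusted p = 0.00845), Grm7 at −0.36 ± 0.09 (SE, adjusted p = 0.0400), Gabrg1 at −0.36 ± 0.083 (SE, adjusted p = 0.0326) and Gabrb1 at −0.32 ± 0.071 (SE, adjusted p = 0.0285). The other was Grin2c, at 332, 299, 305 and 334 TPM in controls and 291, 385, 369.9 and 407 TPM in LLC, which was higher at 0.29 ± 0.057 (SE, adjusted p = 0.0216) and had 0.18 ± 0.10 (SE, adjusted p = 0.284) with all libraries. The median over the receptor genes was then −0.07 and that of all genes −0.02, with 29 of 40 negative. Without LLC replicate 4, 7 passed beside 10.7% of all genes (Gabra2, Gabrb1, Grin2b, Gria4, Grm3, Grm4 and Grm7, all lower), and without any other single library of the 8, 0 passed (limma). In 1 fit of all 24 libraries, which share 1 estimate of the spread, 10 of 40 passed in cerebellum, all lower, beside 20.6% of all genes (7.44% higher and 13.2% lower). Gabra2, the 1 gene called with all 8 libraries, passed without LLC replicate 1 and without LLC replicate 4, as did Gabrb1 and Grm7. Without any one of the other libraries Gabra2 lost its call. In replicate 1 some genes that lead in cerebellum were low and some forebrain ones high. Gabra6 was at 455 TPM against 830 to 959 TPM in the other LLC libraries, and Gabra5 at 28.2 TPM against at most 2.03 TPM there. Gabra3 and Grm5 were raised too, at 42.4 and 6.06 TPM against at most 14.9 and 2.81 TPM in the other LLC libraries. Grin2b was not raised. It was at 3.52 TPM in replicate 1, against 2.99 to 4.83 TPM in the other LLC libraries and 4.94 to 5.68 TPM in controls.

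The cerebellar differences varied with base composition among receptor genes and among all genes. Over the 40 tested receptor genes Spearman's rho between the G and C percent of the longest transcript and the log2 difference was 0.50, against 0.37 over 14120 genes, and with transcript length it was −0.33 and −0.27. These values describe genes of the same libraries and carry no p-value. When the trend with length and GC content was removed from each library, an alternative chosen after seeing the data, 0 receptor genes passed (limma) and their median was −0.04. Gabra2 (38.4% G and C) then differed by −0.42 with an adjusted p of 0.0993, and Gabrg1 (35.3%) by −0.04 with 0.860, while Grm7 (47.2%) differed by −0.37 with 0.0666. The adjusted p of Gabrg1 ran from 0.0326 to 0.860 over 16 alternatives, 2 of which passed, and that of Grm7 from 4.00e-04 to 0.180 over 16 alternatives, 5 of which passed. Without LLC replicate 1 the rho over receptor genes was 0.48. Astrocyte markers lay 0.37 to 0.44 below the control mean in LLC replicates 1 to 3 and 0.11 below it in replicate 4, with 1 of 5 passing as lower and sums of 1431 to 1769 TPM in LLC against 1776 to 1900 TPM in controls. All 5 red blood cell and 1 of 3 endothelial markers passed as higher in cerebellum, and 1 of 3 Bergmann glia markers as lower. The part of these cell types was not tested.

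In the hippocampus 1 of 39 receptor genes passed, and it was higher, beside 3.61% of all 14650 genes tested (2.58% higher and 1.03% lower). The medians were −0.07 for receptor genes and 0.01 for all genes, and 26 of 39 were negative (66.7%) against 47.8%. Single differences ran from −0.58 to 0.70. At an unadjusted p under 0.05 there were 10 of 39, 8 of them lower, beside 22.2% of all genes. Groups did not overlap for 4 receptor genes that were lower (Gabra2, Gabrb1, Gria4 and Grm7), 4 of 39, beside 4.81% of all genes, and for 1 that was higher (Grin1), beside 8.95%. Grin1 was at 154, 157, 156 and 158 TPM in controls and 172, 174, 170.4 and 174 TPM in LLC, a narrow step in which every LLC library was higher, and rose by 0.14 ± 0.032 (SE, adjusted p = 0.0414). Exons of Grin1 share 13.5% of their bases with the antisense gene Grin1os, so without strand in the counting their reads cannot be told apart. Gabrb1 did not pass, at 64.7, 60.5, 74.4 and 58.4 TPM in controls and 47.5, 52.7, 44.2 and 56.8 TPM in LLC (−0.35 ± 0.092, SE, adjusted p = 0.0642), and neither did Gabra2, at 40.3, 38.9, 31.8 and 46.6 TPM in LLC beside the control values above (−0.35 ± 0.10, SE, adjusted p = 0.0781).

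The hippocampal call was lost without any one library other than LLC replicate 4. The adjusted p of Grin1 ran from 0.0288 to 0.256 over 16 alternatives, 5 of which passed. With median-ratio scaling Gabrb1 took its place as the single call (−0.36, adjusted p = 0.0489), and its adjusted p ran from 0.0195 to 0.148 over 16 alternatives, 2 of which passed. Without LLC replicate 4, 6 of 39 passed beside 11.4% of all genes: Grin1 and Gabrr2 higher, and Grm3, Gabra2, Gabrb1 and Grin2c lower. Grm3 was at 29.6, 33.9, 37.4 and 31.5 TPM in controls and 16.5, 21.2, 17.9 and 35.5 TPM in LLC, with replicate 4 inside the control range. It stood at −0.58 ± 0.20 (SE, adjusted p = 0.126) with all libraries and at −0.81 ± 0.10 (SE, adjusted p = 0.00186) without that one. Astrocyte markers lay 0.33 to 0.41 below the control mean in LLC replicates 1 to 3 and 0.08 above it in replicate 4, 0 of 5 passed (limma), and their sums were 1031 to 1339 TPM in LLC against 1194 to 1355 TPM in controls. All 3 endothelial and all 5 red blood cell markers passed as higher in hippocampus, and of 8 pan-neuronal markers 1 passed as higher and 2 as lower. The part of these cell types was not tested.

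**Figure D4:**
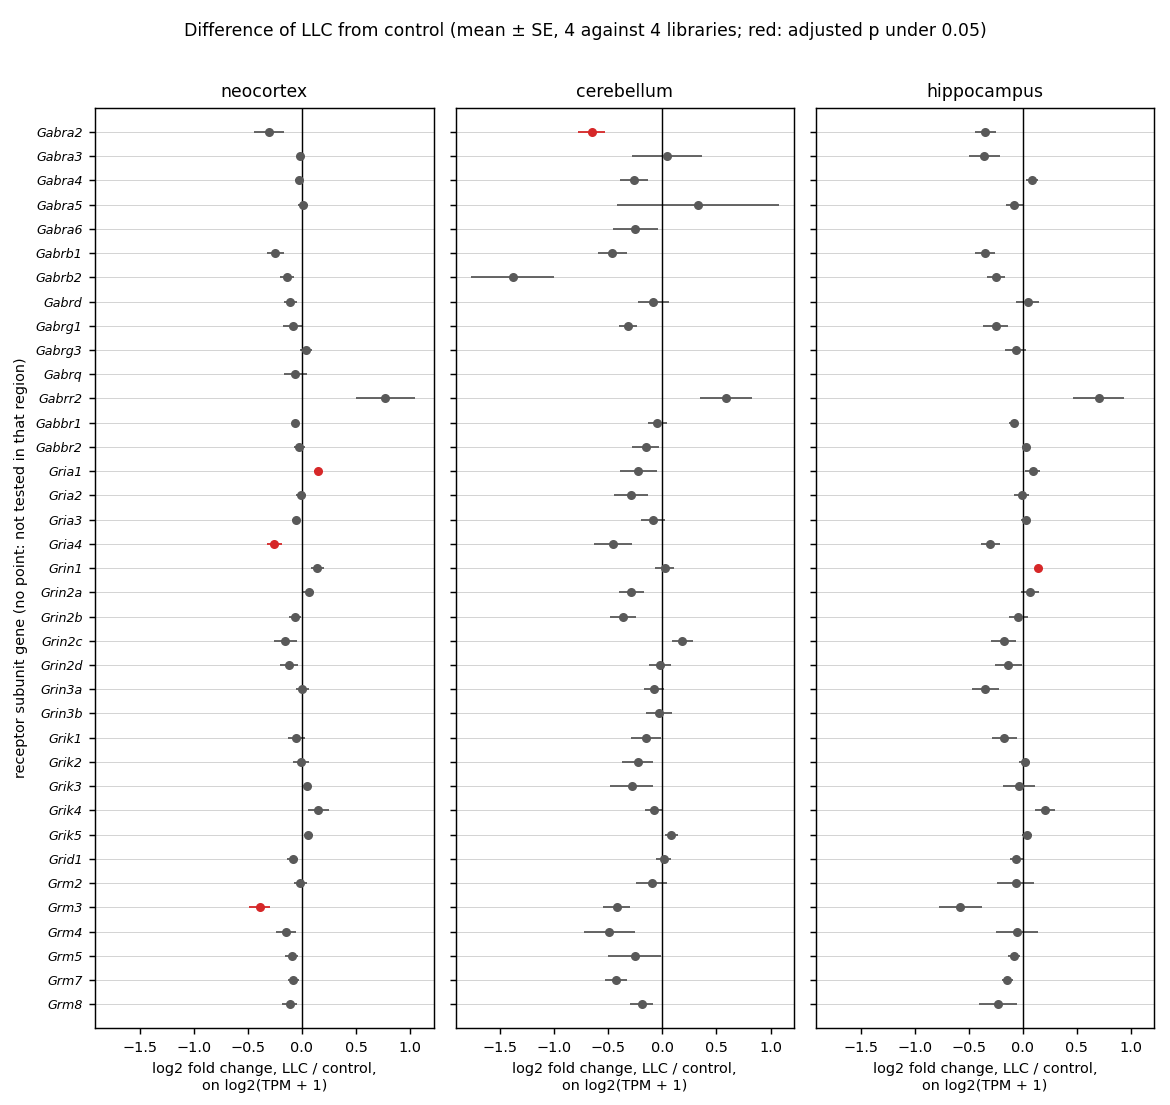
Log2 difference of LLC from control on log2(TPM + 1) for 37 of the receptor genes tested, with its SE, in neocortex, cerebellum and hippocampus (4 against 4 libraries each). The 5 red points passed at an adjusted p under 0.05 (Gria1, Gria4 and Grm3 in neocortex, Gabra2 in cerebellum, Grin1 in hippocampus), and most points lie left of 0 in each region.

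The average of the 3 regional differences was tested on the mean of the 3 libraries that carry one number. This uses the same libraries as the comparisons above and is no independent evidence, and a gene can pass through 1 region. Here 6 of 40 receptor genes passed, all lower, beside 13.1% of all 14873 genes tested (7.66% higher and 5.45% lower). The medians were −0.09 for receptor genes and −0.01 for all genes, and 33 of 40 were negative (82.5%) against 52.4%. The 6 were Gabrb1 (−0.35 ± 0.074, SE, adjusted p = 0.0180), Gabrb2 (−0.59 ± 0.14, SE, adjusted p = 0.0241), Grm7 (−0.22 ± 0.051, SE, adjusted p = 0.0255), Gabra2 (−0.44 ± 0.11, SE, adjusted p = 0.0284), Grm3 (−0.46 ± 0.13, SE, adjusted p = 0.0395) and Gria4 (−0.34 ± 0.10, SE, adjusted p = 0.0466). By role these were 3 GABA-A subunits of 14 tested, 1 AMPA subunit of 4 and 2 metabotropic receptors of 7, with none among the 6 NMDA, 5 kainate, 2 delta and 2 GABA-B genes tested (limma). The average of Gabrb2 combined −1.39 in cerebellum with −0.14 ± 0.063 (SE, adjusted p = 0.173) in neocortex and −0.25 ± 0.083 (SE, adjusted p = 0.121) in hippocampus, and that of Grm7 combined −0.43 in cerebellum with −0.08 ± 0.05 (SE, adjusted p = 0.310) and −0.14 ± 0.047 (SE, adjusted p = 0.118). Over the region means all 3 endothelial and all 5 red blood cell markers passed as higher, and 2 of 8 pan-neuronal, 2 of 5 Purkinje cell, 1 of 5 forebrain glutamatergic, 1 of 3 Bergmann glia, 1 of 5 astrocyte, 1 of 5 oligodendrocyte and 1 of 4 microglia markers as lower. Their part was not tested.

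Gabrb1 and Gabra4 on chromosome 5 start head to head: in RefSeq the Gabra4 start lies 387 bases downstream of the Gabrb1 start shown above, on the other strand, so that the transcripts overlap at their 5′ ends, and their GENCODE exons share 46 bases. Gabrb1 was at 40.5, 42.1, 39.0 and 40.7 TPM in control and 32.5, 34.6, 29.8 and 40.2 TPM in LLC neocortex and at 21.8, 22.1, 23.4 and 23.2 TPM in control and 11.8, 16.2, 18.4 and 19.2 TPM in LLC cerebellum. It was lower on average in all 3 regions (−0.25, −0.46 and −0.35). Gabra4 was at 71.2, 68.3, 69.3 and 67.0 TPM and 68.6, 68.5, 69.4 and 64.5 TPM in neocortex and 57.2, 56.7, 63.8 and 58.5 TPM and 65.4, 59.4, 65.8 and 60.6 TPM in hippocampus, where control and LLC ranges overlapped in both regions. In cerebellum it was at 17.04, 20.4, 19.5 and 21.4 TPM in controls and 12.4, 16.1, 18.9 and 17.8 TPM in LLC (−0.26 ± 0.13, SE, adjusted p = 0.233), where the ranges overlapped too. Its difference over the region means was −0.067 ± 0.047 (SE, adjusted p = 0.337). The difference between these neighbours was not tested.

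Over the region means Gabrb1 passed in 13 of 15 alternatives (adjusted p 6.64e-04 to 0.0636) and Gabrb2 in 12 of 15 (0.0121 to 0.0797). Gabra2, Grm3, Grm7 and Gria4 passed in 6, 7, 8 and 8 of 15, and without any single number other than LLC replicate 4 only Gria4 among them did, without LLC replicate 1. The number of receptor genes called was 5 of 40 without LLC replicate 1, beside 8.53% of all genes, and 2 without LLC replicate 2, LLC replicate 3, control replicate 14 or control replicate 17, beside 4.50% to 7.85%. It was 0 without control replicate 15 or 16 (limma), beside 2.55% and 3.12%, and 13 without LLC replicate 4, beside 29.1%. Removing LLC replicate 1 left Gabrb1 at −0.29 ± 0.063 (SE, adjusted p = 0.0300) and Gabrb2 at −0.43 ± 0.065 (SE, adjusted p = 0.0121). In that fit the LLC group holds 3 numbers.

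Of the 38 receptor genes tested in every region, 19 were lower on average in LLC in all 3, beside 30.4% of all 13633 such genes, 3 were higher in all 3 (Gabrr2, Grik5 and Grin1, 7.89% beside 27.4%) and 16 had mixed signs. The cerebellar difference of Grin1 was close to 0 and ran from −0.04 to 0.098 when single libraries were left out. Gabrb1, Gria4 and Grm3 were lower with an unadjusted p under 0.05 in each region (3 of 38, beside 2.64% of all genes), and Gabrr2 was higher in that way (beside 4.29%). Whether the LLC difference itself differs between regions was tested in a fit of all 24 libraries. No receptor gene passed for cerebellum minus neocortex (0 of 38 beside 0.646% of all genes), hippocampus minus neocortex (0 of 39 beside 0.00%) or hippocampus minus cerebellum (0 of 38 beside 0.0936%), all by limma. At an unadjusted p under 0.05 there were 5, 1 and 7 receptor genes, beside 12.9%, 1.91% and 12.3% of all genes. The smallest p-values belonged to Grm7 and Gabrb2. For Grm7 cerebellum minus neocortex was −0.35 (95% interval −0.56 to −0.14, adjusted p = 0.118), and for Gabrb2 it was −1.25 (95% interval −2.02 to −0.48, adjusted p = 0.135). Gabrb2 passed for cerebellum minus neocortex without LLC replicate 1 in all regions, at −0.75 ± 0.16 (SE, adjusted p = 0.0416), and without the cerebellar LLC replicate 1 library alone, at −0.78 ± 0.16 (SE, adjusted p = 0.0147). Grm7 passed without LLC replicate 4, at −0.40 ± 0.085 (SE, adjusted p = 0.0193) for cerebellum minus neocortex and 0.36 ± 0.085 (SE, adjusted p = 0.0410) for hippocampus minus cerebellum.

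Shares within the receptor pools were compared in the same way. In cerebellum Grin2c held 89.1% to 90.9% of GluN2 TPM in controls and 91.6% to 93.1% in LLC, and Grin2b 1.34% to 1.66% and 0.724% to 1.11%. In neocortex Grm3 held 27.5% to 29.8% of metabotropic receptor TPM in controls and 22.6% to 27.1% in LLC. Shares were described without a test.

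Gabrr2, a rho subunit known mainly from the retina, had the largest positive difference of the tested genes and was chosen for mention after its values were seen. It was at 0.833, 1.15, 0.820 and 1.73 TPM in control and 3.77, 2.38, 4.24 and 0.973 TPM in LLC neocortex, 0.776, 1.15, 1.81 and 1.22 and 3.74, 1.58, 3.21 and 1.35 TPM in cerebellum, and 0.910, 1.28, 1.498 and 2.22 and 2.41, 3.92, 4.496 and 1.66 TPM in hippocampus. LLC replicate 4 lay inside the control range each time, and the differences of 0.77 ± 0.28 (SE, adjusted p = 0.0976), 0.59 ± 0.24 (SE, adjusted p = 0.175) and 0.70 ± 0.24 (SE, adjusted p = 0.124) did not pass. The low genes Gabrr1, Gabrr3, Gabre and Gabrp stayed below 1 TPM in every library. Grm6 stayed at 0.

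The other genes of GABA and glutamate signalling came from lists of partners, whose counts stand beside the 8.54%, 2.50% and 3.61% of all genes that passed in neocortex, cerebellum and hippocampus and the 13.1% over the region means. Of 10 genes of glutamate synthesis and transport 3 passed in neocortex, all higher: Slc1a3, the glial transporter that clears glutamate (0.24 ± 0.061, SE, adjusted p = 0.0402), Glul, which makes glutamine from it (0.25 ± 0.065, SE, adjusted p = 0.0467), and the transporter Slc1a6 (0.22 ± 0.06, SE, adjusted p = 0.0499). Over the region means Glul was higher (0.32 ± 0.08, SE, adjusted p = 0.0317), and Glud1, an enzyme of glutamate turnover, was lower (−0.17 ± 0.049, SE, adjusted p = 0.0481). Of 8 genes of GABA synthesis and transport 0 passed in any region (limma), with 2, 2 and 3 at an unadjusted p under 0.05 in neocortex, cerebellum and hippocampus, beside 29.8%, 24.4% and 22.2% of all genes. Of 3 glycine receptor genes tested Glrb, the anchored beta subunit, fell in neocortex (−0.27 ± 0.059, SE, adjusted p = 0.0271).

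Of 15 AMPA and kainate auxiliary subunits Shisa9, which slows recovery of AMPA receptors, fell in cerebellum (−0.66 ± 0.10, SE, adjusted p = 0.0222), and its difference of hippocampus minus cerebellum passed as well (0.78 ± 0.14, SE, adjusted p = 0.0240). Over the region means Shisa9 and the kainate auxiliary subunit Neto2 (−0.33 ± 0.069, SE, adjusted p = 0.0174) were lower, and the auxiliary subunit Cacng4 (0.17 ± 0.037, SE, adjusted p = 0.0224) and Porcn, a resident of the endoplasmic reticulum found in AMPA receptor complexes (0.15 ± 0.039, SE, adjusted p = 0.0360), were higher. In hippocampus 1 of 15 excitatory scaffold genes passed, Homer1 (−0.31 ± 0.06, SE, adjusted p = 0.0305), which links group I metabotropic receptors to the scaffold. There 1 of 11 GABA receptor auxiliary and scaffold genes passed too, Kctd16, a GABA-B partner (−0.38 ± 0.089, SE, adjusted p = 0.0475). Both were lower. Every call of a partner gene within a region was lost when some single library was left out, and these genes passed in 3 to 9 of 16 alternatives. Over the region means the partner genes named passed in 6 to 13 of 15. In cerebellum, with LLC replicate 1 included, the median difference was −0.14 for AMPA and kainate auxiliary subunits and −0.15 for the excitatory scaffold. For GABA receptor partners it was −0.14, beside −0.04 for all genes. In the same order the lists had −0.03, −0.04 and −0.01 in neocortex, beside 0.01 for all genes. In hippocampus they had 0.03, −0.02 and 0.002, beside 0.01. The cerebellar medians of these lists are not given without LLC replicate 1.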

How the data were processed

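RNA was sequenced from 24 libraries of mouse neocortex, cerebellum and hippocampus, extracted with Trizol and prepared with a stranded mRNA kit, per the labels' protocols. The authors deposited TPM values (scaled to one and the same total in each library) for 47643 gene symbols, 23222 of them at 0 in every library. The only build named is mm10, in the submitters' processing notes. The aligner, the counter, the annotation and whether strand was used were not given in the sources used here. As read totals cannot be had from TPM, the depth and the counting error of a value are unknown. No 2 of the 276 pairs of libraries held identical values.

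From the deposited TPM, log2(TPM + 1) was fitted by limma (version 3.58.1 in R 4.3.3, with lmFit and a trended eBayes), over genes with a mean of at least 1 TPM in the libraries compared. P-values were two-sided and adjusted by the Benjamini-Hochberg method over all genes tested, at a threshold of 0.05. A fold change on this scale understates the change of low genes. LLC was compared with control within a region and over the mean of 3 regions, control regions with each other, and differences of LLC effects in 1 fit of 6 groups. The code was tested on simulated data. Alternatives were a pseudocount of 0.1, no filter or one at 5 TPM on average, scaling by median ratios, quantile normalization, a replicate block, 1 fit of all 24 libraries, each library or number left out and, added after seeing the data, removal of the trend with length and GC content (splines with 4 degrees of freedom).

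Members and lists were chosen with earlier results of these data known. Named with their values were the receptor genes that passed under LLC (or the 3 with the smallest p), the 5 with the largest change in each direction per region contrast, the highest of each family per region, and partner genes that passed, at most 4 per list. Nearest genes are by Pearson correlation for Gabra6, Gria1 and Grin2a. Some genes that these rules name are not reported here. Gene positions came from GENCODE M21 and promoter windows from RefSeq (GRCm38.p6). Figures were drawn with matplotlib 3.10.9 in Python 3.11.15.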

Additional observations from a re-analysis of the deposited data

Results flagged for a closer look

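In groups of 4 libraries, a value was listed when its gap to the nearest other value, divided by the range of the group, exceeded Dixon's critical value. Chance lists about 1 in 20 groups, and 9 of 132 groups were listed over 22 named receptor genes. Of these, 3 were cerebellar LLC replicate 1, the library whose cerebellar cell markers were low: Gria1 at 162 TPM (the others 278 to 293), Gabra5 at 28.2 TPM (1.30 to 2.03) and Gabra3 at 42.4 TPM (12.6 to 14.9). LLC replicate 4 was high for Gabra2 in cerebellum, at 10.7 TPM against 7.18 to 7.37 TPM, and for Gabrd in neocortex, at 77.7 TPM against 64.9 to 66.8 TPM. The other 4 were Gria1 in control neocortex replicate 15 (199 TPM against 189 TPM in the others), Gabrg3 in control hippocampus replicate 16 (9.24 TPM against 7.28 to 7.40 TPM), Grin2a in hippocampal LLC replicate 1 (95.2 TPM against 79.2 to 81.8 TPM) and Gabra6 in control hippocampus replicate 17 (0.0284 TPM, the others listed at 0).

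Among the partner genes, the LLC difference of Shisa9 in hippocampus minus that in cerebellum was 0.78 and passed the test of the difference (limma, adjusted p = 0.0240, 3.55e-04 to 0.156 over its alternatives).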

How the results depend on the processing

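The receptor genes named under a comparison because they passed it or had its smallest p-values, and the partner genes that passed, kept their direction under the alternatives run. Some other receptor genes did not: when single libraries or numbers were left out, the sign turned for 11 of 40 in neocortex, 12 of 40 in cerebellum (among them Grin1, Gabra3 and Gabra5), 8 of 39 in hippocampus and 8 of 40 over the region means (among them Gria1). The region contrasts kept their numbers of calls within 1.5 times. Each named LLC result was refitted under its alternatives. Of these refits, 290 stayed on the same side of the threshold as the main fit, 242 lost the call and 10 gained it. Those that stayed include results that did not pass in the main fit. Without a filter on low values 0, 0 and 2 receptor genes passed in neocortex, cerebellum and the region means. Median-ratio scaling and quantile normalization each gave 2 in cerebellum. One fit of all 24 libraries gave 0 in neocortex, 10 in cerebellum and 2 in hippocampus, beside 5.41%, 20.6% and 4.36% of all genes. With length and GC trends removed, 0 passed in cerebellum and in hippocampus. Where a count of receptor genes stands without the share of all genes under that setting, it describes the setting. It is then no result about the receptor genes. Leaving out 1 library or number gave 0 to 11 in neocortex, 0 to 7 in cerebellum, 0 to 6 in hippocampus, 0 to 13 over the region means, 0 to 1 for cerebellum minus neocortex (1 without the cerebellar LLC replicate 1 library alone) and 0 to 1 for hippocampus minus cerebellum.

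Besides the number in its title, each library carries a replicate number in its description, which an LLC and a control library of a region share. The LLC fit with the description number as a block gave 0 in neocortex, 2 in cerebellum and 0 in hippocampus. These counts, too, stand without the share of all genes and describe the setting only. For region contrasts and differences of LLC effects the block was the title number. The labels do not tie the numbers to animals, and deviations of same-numbered libraries correlated unevenly. LLC and control of a region with the same description number correlated by −0.26 to 0.47 (5 of 12 pairs above 0.1). Libraries of 2 regions with the same title number correlated by −0.10 to 0.63 (16 of 24). A library correlated best with its own description number in 8 of 24 comparisons and with its own title number in 36 of 48. Libraries with the same title number were thus most alike across regions in most comparisons. The main fits of region contrasts and of differences of LLC effects had no block and treated these libraries as independent. With 4 libraries against 4, calls near the threshold turn on single libraries, and the depth behind low TPM values is unknown.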
